A study of Mus musculus with 18 samples.

Results

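Cd33 and 5 genes of the MS4A family (Ms4a6b, Ms4a6c, Ms4a6d, Ms4a7 and Ms4a4b) were followed in demyelinated white matter of mice with and without TREM2. They are 6 of 20406 genes named on the arrays and were taken as a set because they encode myeloid surface proteins of loci linked to Alzheimer's disease risk. Each gene value is the median of the probe sets annotated to that symbol alone, 45 probe sets in all, on a log2 scale. RNA was taken from caudal corpus callosum, the fibre tract joining the hemispheres, in C57BL/6 mice whose chow held 0.2% cuprizone (CPZ). This copper-binding compound is toxic to oligodendrocytes and so removes myelin. At the 12-week stage there were 6 Trem2 knockout (TREM2-/-, KO) and 5 wild-type (WT) arrays, and at the 6-week stage 3 KO and 4 WT arrays. The labels use the stage for the age of the mice in one place and give several feeding times in another, so age and time on CPZ cannot be told apart. All groups ate CPZ, and no normally fed mice are among the samples. The labels do not say how the knockout allele was made, and they name no individual mice. P-values therefore reflect variation among these arrays, part of which may be technical.

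CD33 is a sialic acid-binding lectin (Siglec) of myeloid cells. In humans its tail carries inhibitory tyrosine motifs, which recruit phosphatases and oppose receptors that signal through ITAM adaptors such as TYROBP, the partner of TREM2. The tail of the mouse protein differs from the human one. MS4A proteins cross the membrane several times and include the B cell antigen CD20 and the beta chain of the high-affinity IgE receptor on mast cells. In humans, variants near MS4A4A and MS4A6A alter the level of soluble TREM2 in cerebrospinal fluid. Ms4a6b, Ms4a6c and Ms4a6d are mouse relatives of human MS4A6A, Ms4a7 marks macrophages at brain borders in mice, and Ms4a4b is known from mouse T cells. The MS4A genes lie together on mouse chromosome 19 and Cd33 on chromosome 7.

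The promoter windows of Cd33, the gene with the clearest genotype difference, are given first, with those of Ms4a6b and Ms4a6c. The last 2 are close MS4A relatives whose genotype differences are compared within arrays below. Windows run from 250 bases before to 50 bases after a start in the RefSeq table used (GRCm38.p6), are written 5′ to 3′ on the gene's strand, and lie at chr7:43533122-43533421 (minus strand), chr19:11518309-11518608 (plus strand) and chr19:11469118-11469417 (plus strand). Capitals mark GGAAGT or its reverse complement ACTTCC, which hold the GGAA core bound by ETS factors such as PU.1, the myeloid factor encoded by Spi1.
Cd33: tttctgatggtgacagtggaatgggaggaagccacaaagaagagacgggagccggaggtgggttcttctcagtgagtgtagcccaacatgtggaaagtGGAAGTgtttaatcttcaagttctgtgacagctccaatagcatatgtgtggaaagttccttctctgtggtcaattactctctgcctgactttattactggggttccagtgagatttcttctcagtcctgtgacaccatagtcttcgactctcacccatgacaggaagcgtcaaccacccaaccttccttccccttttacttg
Ms4a6b: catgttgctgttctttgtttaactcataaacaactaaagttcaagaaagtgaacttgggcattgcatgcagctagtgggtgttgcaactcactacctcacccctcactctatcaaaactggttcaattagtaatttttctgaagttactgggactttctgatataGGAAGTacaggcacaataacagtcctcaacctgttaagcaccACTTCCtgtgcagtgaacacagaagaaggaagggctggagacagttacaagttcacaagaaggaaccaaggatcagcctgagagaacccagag
Ms4a6c: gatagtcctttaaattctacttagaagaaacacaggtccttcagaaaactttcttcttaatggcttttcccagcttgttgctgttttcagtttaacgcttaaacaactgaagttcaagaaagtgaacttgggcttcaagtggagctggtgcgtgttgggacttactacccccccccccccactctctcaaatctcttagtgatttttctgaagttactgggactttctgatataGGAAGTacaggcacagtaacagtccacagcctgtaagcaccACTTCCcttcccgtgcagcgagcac

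The start behind the Cd33 window lies inside the gene, 4253 bases downstream of the outermost start of its RefSeq span, while those of Ms4a6b and Ms4a6c lie 0 and 15 bases from theirs, so the outermost Cd33 start is not covered. The motif was searched on both strands, and the 2 spellings do not overlap in these windows. Cd33 holds 1 match, and Ms4a6b and Ms4a6c hold 2 each. Of the 6 members, 5 (all but Ms4a6d) had a window in the RefSeq table (6 windows in all, as Ms4a7 has 2). Counted by window, 5 of the 6 held the motif, as did 23.8% of all 32851 promoter windows of this length. Whether the members hold it more often than other genes was not tested. The windows are few, and those of Ms4a6b and Ms4a6c are alike in sequence and so not independent. The windows of Ms4a6b and Ms4a6c could be aligned over 216 paired bases, 193 of them identical (89.4%). Their longest shared run is 48 bases long and begins at position 133 of the Ms4a6b window and position 202 of the Ms4a6c window, counted from the 5′ end: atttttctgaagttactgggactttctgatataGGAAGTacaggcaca. It includes 1 of the motif matches. These are matches of letters and not measured binding.

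The genotype labels were checked on Trem2, which averaged 5.27 ± 0.30 in KO arrays and 7.36 ± 0.48 in WT arrays at 12 weeks, and 5.80 ± 0.33 in KO arrays and 7.29 ± 0.83 in WT arrays at 6 weeks (SD). KO and WT did not overlap at either stage. The labels do not say which exons the allele lacks. Tissue markers were present, with oligodendrocyte genes at group means of 7.95 to 9.49 and astrocyte genes at 8.46 to 9.20. Astrocyte and myeloid genes were not equal between genotypes. The mean of 6 astrocyte markers was 8.81 to 9.16 in KO and 8.32 to 8.63 in WT at 12 weeks, without overlap, and 8.91 to 9.49 in KO and 8.44 to 9.19 in WT at 6 weeks. The mean of 17 pan-myeloid markers was 7.75 to 8.63 in KO and 7.17 to 7.74 in WT at 12 weeks, and 7.75 to 9.33 in KO and 7.03 to 8.65 in WT at 6 weeks. In a bulk sample fewer cells of a type and less RNA per cell cannot be told apart. KO replicate 2 and WT replicate 4 of 6 weeks had the lowest limma array weights (0.446 and 0.503). Their neuron marker means were 6.90 and 7.39. The other 6-week arrays were at 8.82 and 9.01 in KO and 8.38 to 9.29 in WT. Both low-weight arrays also had the highest oligodendrocyte mean of their group. KO replicate 2 reached 9.74, above replicate 1 (8.89) and replicate 3 (7.91). WT replicate 4 reached 10.60, above replicates 1 to 3 (8.43 to 10.12). What part tissue content had in the low weights and in the 6-week values was not tested. Values without these arrays are therefore not taken as the more accurate ones. The 6-week differences of the members and of part of the marker lists are given with and without these 2 arrays. Leaving them out leaves 2 KO and 3 WT arrays.

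Cd33 was higher in KO at 12 weeks and was the member that passed the test there. The 6 KO arrays ran from 7.42 to 8.10 with a median of 7.68. The 5 WT arrays were at 6.22, 6.89, 6.12, 6.15 and 6.52. Every KO array lay above every WT array. A separation of this kind toward higher KO values occurred in 1.7% of the 16324 genes tested. The log2 difference was 1.31 ± 0.25 (SE), which is 2.48-fold, with a 95% confidence interval from 0.79 to 1.84. In the limma fit across all genes the adjusted p was 0.0273 (Benjamini-Hochberg, threshold 0.05). The exact two-sided permutation test over arrays gave p = 0.00216, the smallest that 462 arrangements allow. Cd33 was thus 1 of 5 members tested that passed, against 0.441% of all genes (72 genes) in either direction and 0.368% (60 genes) higher in KO. The 12-week arrays are listed in the series as 2 consecutive blocks, each holding both genotypes. The labels do not name these blocks as batches. The Cd33 difference was 1.18 in the first block and 1.39 in the second. The call depended on which arrays were used. Leaving out WT replicate 1, 3, 4 or 5 or KO replicate 2, 4 or 6 of 12 weeks moved the adjusted p to between 0.0526 and 0.0878, with differences of 1.23 to 1.35, while it stayed without WT replicate 2 or KO replicate 1, 3 or 5. Without the 2 arrays of lowest weight, both of 6 weeks, the adjusted p was 0.00767.

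At 6 weeks Cd33 was at 7.60, 8.64 and 8.10 in KO and at 6.32, 6.64, 7.79 and 6.34 in WT. WT replicate 3, at 7.79, reached the KO range, while the other 3 WT arrays lay below it. That array also had the highest pan-myeloid mean of its group, 8.65 against 7.03 to 7.45 in the other WT arrays. The same holds for KO replicate 2, which had the highest Cd33 value in KO. Its pan-myeloid mean was 9.33, against 7.75 and 8.03 in the other KO arrays. The log2 difference was 1.34 ± 0.32 (SE; adjusted p = 0.236), with a 95% interval from 0.68 to 2.01, and the exact permutation p was 0.0857, where 35 arrangements allow 0.0286 at the smallest. Without WT replicate 3 the difference was 1.68 and passed (adjusted p = 0.0158). Without the 2 arrays of lowest weight it was 0.93 (adjusted p = 1.00). No member passed at 6 weeks in the limma fit, where 7 genes did (0.0429% of those tested), while 2 of the 5 members, Cd33 and Ms4a6b, had an unadjusted p under 0.05, as did 5.44% of all genes. At 12 weeks the same 2 members had one, as did 11.1% of all genes. The group means of Cd33 ranked KO at 6 weeks (8.11 ± 0.52, SD), KO at 12 weeks (7.69 ± 0.25), WT at 6 weeks (6.77 ± 0.69) and WT at 12 weeks (6.38 ± 0.33). The 2 stages overlapped within each genotype, and KO at 12 weeks overlapped WT at 6 weeks through WT replicate 3. The interaction, the 12-week difference minus the 6-week one, was −0.03 ± 0.41 (SE), with a 95% interval from −0.88 to 0.82, so differences in the genotype effect of up to that size are not resolved.

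**Figure D1:**
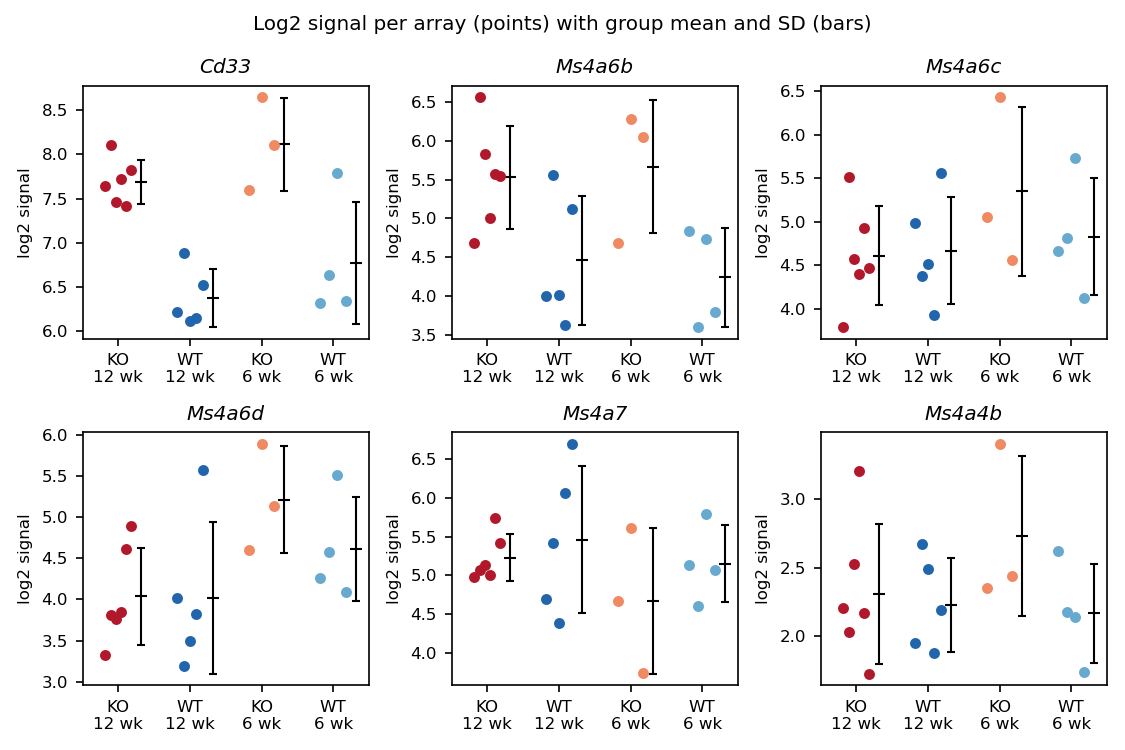
Log2 signal of the 6 genes (vertical axis) in every array of the 4 groups, with points for arrays and bars for the group mean and SD beside them. Cd33 points of KO arrays at 12 weeks all lie above those of WT (lowest 7.42 against highest 6.89), while Ms4a6c, Ms4a6d and Ms4a7 overlap and Ms4a4b stays at group means of 2.17 to 2.73.

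The 10 probe sets of Cd33 showed the same direction with 2 exceptions at 12 weeks. There 8 of them were higher in KO by 0.65 to 1.94, and 2 were at −0.11 and −0.06. At 6 weeks all 10 were higher, from 0.63 to 1.95, and from 0.21 to 1.44 without the 2 arrays of lowest weight. The brightest probe set differed by 1.16 at 12 weeks, with an adjusted p of 0.136 when it stood for the gene. Probe sets of a gene share the RNA of the same arrays and are not replicates.

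Ms4a6b had a difference of similar size, with a wider spread, that did not pass. At 12 weeks the KO arrays ran from 4.68 to 6.56 with a median of 5.56. The WT arrays were at 4.00, 5.56, 4.01, 3.62 and 5.12. The WT replicates at 5.56 and 5.12 lay within the KO range, and the other 3 below it. The log2 difference was 1.07 ± 0.39 (SE), with a 95% interval from 0.25 to 1.89, an adjusted p of 0.310 in limma and an exact permutation p of 0.0519. At 6 weeks Ms4a6b was at 4.68, 6.28 and 6.05 in KO and at 4.84, 3.60, 4.73 and 3.79 in WT. KO replicate 1 fell within the WT range. The difference was 1.43 ± 0.50 (SE), with a 95% interval from 0.39 to 2.47, an adjusted p of 0.712 in limma and an exact permutation p of 0.114. Without the 2 arrays of lowest weight it was 0.98 (adjusted p = 1.00 in limma). Of its 6 probe sets, 5 were higher in KO at 12 weeks (0.67 to 1.69, the other at −0.57) and 6 at 6 weeks (0.79 to 1.71). Without the 2 arrays of lowest weight 5 of the 6 were higher at 6 weeks, and the range was −0.00 to 1.23.

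Ms4a6c, its close relative, gave other values. At 12 weeks it ran from 3.79 to 5.51 in KO (median 4.52), and the WT arrays were at 4.99, 4.38, 4.51, 3.93 and 5.56. The groups covered nearly the same range. The log2 difference was −0.06 ± 0.36 (SE), with a 95% interval from −0.82 to 0.70 (adjusted p = 0.964 in limma). At 6 weeks it was at 5.05, 6.43 and 4.56 in KO and at 4.67, 4.81, 5.73 and 4.12 in WT, a difference of 0.51 ± 0.46 (SE; adjusted p = 0.999 in limma). That difference was −0.03 without KO replicate 2, the array at 6.43, −0.26 without both arrays of lowest weight, and −0.12 with the mean of the probe sets. Of its 7 probe sets, 2 were higher in KO at 12 weeks (range −1.03 to 0.79) and 3 at 6 weeks (−0.64 to 0.42). Without both arrays of lowest weight 0 were higher at 6 weeks (−1.93 to −0.03).

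Whether the genotype shifted Ms4a6b more than Ms4a6c was tested within arrays, in a comparison chosen after the values were seen. The log2 value of Ms4a6b minus that of Ms4a6c averaged 0.92 ± 0.26 (SD) in KO and −0.21 ± 0.82 in WT at 12 weeks, which differ by 1.13 (exact permutation p = 0.0195). At 6 weeks it averaged 0.32 ± 1.02 in KO and −0.59 ± 0.63 in WT, which differ by 0.92 (exact permutation p = 0.229), and by 1.24 without the 2 arrays of lowest weight. For Cd33 minus Ms4a6c the 12-week averages were 3.08 ± 0.52 in KO and 1.71 ± 0.65 in WT, a difference of 1.37 (exact permutation p = 0.00433), and at 6 weeks the difference was 0.83 (exact permutation p = 0.0571), and 1.20 without those 2 arrays. These are unequal changes of gene pairs within an array and say nothing of whether 1 gene alone stayed the same. The 3 Ms4a6 genes resemble each other in sequence, and how far their probes bind each other's transcripts was not tested.

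Ms4a6d stood at about the same level in both genotypes at 12 weeks. KO arrays ran from 3.32 to 4.89 (median 3.83), and WT arrays were at 4.02, 3.19, 3.49, 3.82 and 5.57. The difference was 0.02 ± 0.38 (SE; 95% interval −0.78 to 0.82; adjusted p = 0.987 in limma). At 6 weeks it was at 4.60, 5.89 and 5.14 in KO and at 4.26, 4.58, 5.51 and 4.09 in WT, a difference of 0.60 ± 0.48 (SE; 95% interval −0.41 to 1.61; adjusted p = 0.999 in limma). It was 0.26 without KO replicate 2, the array at 5.89, and 0.09 without both arrays of lowest weight. Of its 5 probe sets, 4 were higher in KO at 12 weeks (range −0.27 to 0.88) and 3 at 6 weeks (−0.35 to 0.95). Without both arrays of lowest weight 1 was higher at 6 weeks (−0.90 to 0.55).

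Ms4a7 had lower KO means at both stages, within the spread. At 12 weeks KO arrays were close together, from 4.98 to 5.74 (median 5.10), and WT arrays scattered at 4.70, 5.42, 4.39, 6.06 and 6.70. The difference was −0.23 ± 0.37 (SE; 95% interval −0.998 to 0.54; adjusted p = 0.851 in limma). Without WT replicate 5, at 6.70, it was 0.08. At 6 weeks Ms4a7 was at 4.67, 5.61 and 3.74 in KO and at 5.14, 4.60, 5.80 and 5.07 in WT, a difference of −0.48 ± 0.46 (SE; 95% interval −1.45 to 0.49; adjusted p = 0.999 in limma). It was −0.95 without KO replicate 2 and −0.98 without both arrays of lowest weight. Of its 9 probe sets, 7 were lower in KO at 12 weeks (range −0.81 to 0.12) and 5 at 6 weeks (−0.65 to 0.61). Without both arrays of lowest weight 9 were lower at 6 weeks (−1.18 to −0.28).

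Ms4a4b was the dimmest member. It averaged 2.31 ± 0.51 in KO and 2.23 ± 0.34 in WT at 12 weeks, and 2.73 ± 0.58 in KO and 2.17 ± 0.36 in WT at 6 weeks (SD). All these means lie under 3.41, the level below which the dimmest 20% of genes were left out, so Ms4a4b was not tested across genes. Exact permutation tests gave p = 0.781 at 12 weeks and p = 0.171 at 6 weeks. The 6-week means differed by 0.08 without the 2 arrays of lowest weight. Its 8 probe sets split into 5 with means over all arrays under 3.41 and 3 above it. Among those 3, KO minus WT at 12 weeks was −0.81, 0.48 and 1.40, so the probe sets disagree. T and NK cell markers, the cells Ms4a4b is known from, had list means of 3.38 to 3.92 in KO and 3.46 to 3.85 in WT at 12 weeks, and of 3.86 to 4.03 in KO and 3.51 to 3.90 in WT at 6 weeks. In this list 9 of 14 measured were above the filter. Of these, 5 were above WT in KO at 12 weeks and 8 at 6 weeks (medians 0.05 and 0.29). Without the 2 arrays of lowest weight 7 were above WT at 6 weeks (median 0.42). None of the 9 passed by limma at either stage, and 0 had an unadjusted p under 0.05. Their part in the 6-week values of Ms4a4b was not tested.

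**Figure D2:**
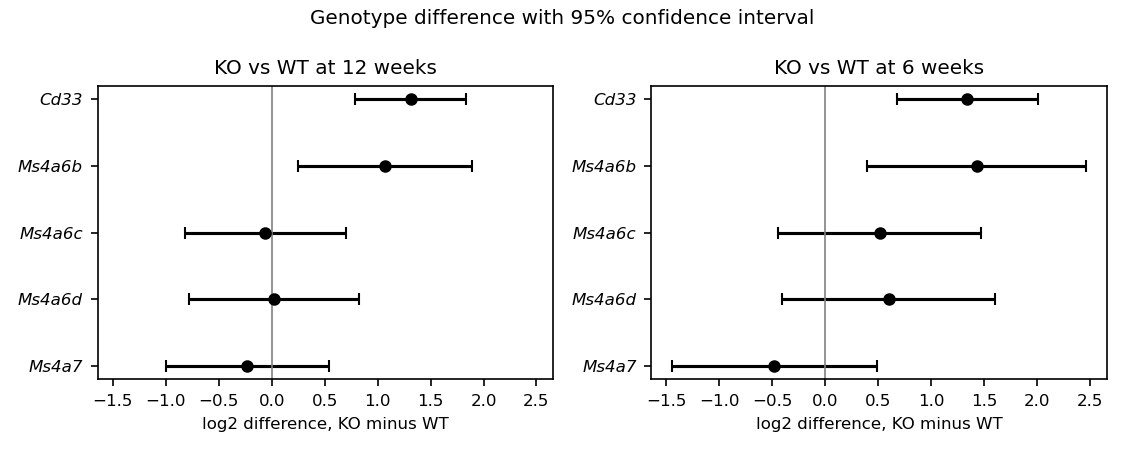
Log2 difference of KO minus WT (horizontal axis) with 95% confidence intervals for the 5 genes above the filter, at 12 weeks on the left and 6 weeks on the right. The intervals of Cd33 (0.79 to 1.84 and 0.68 to 2.01) and Ms4a6b (0.25 to 1.89 and 0.39 to 2.47) lie above 0 and those of Ms4a6c, Ms4a6d and Ms4a7 include 0. The intervals are not adjusted for the number of genes.

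**Figure D3:**
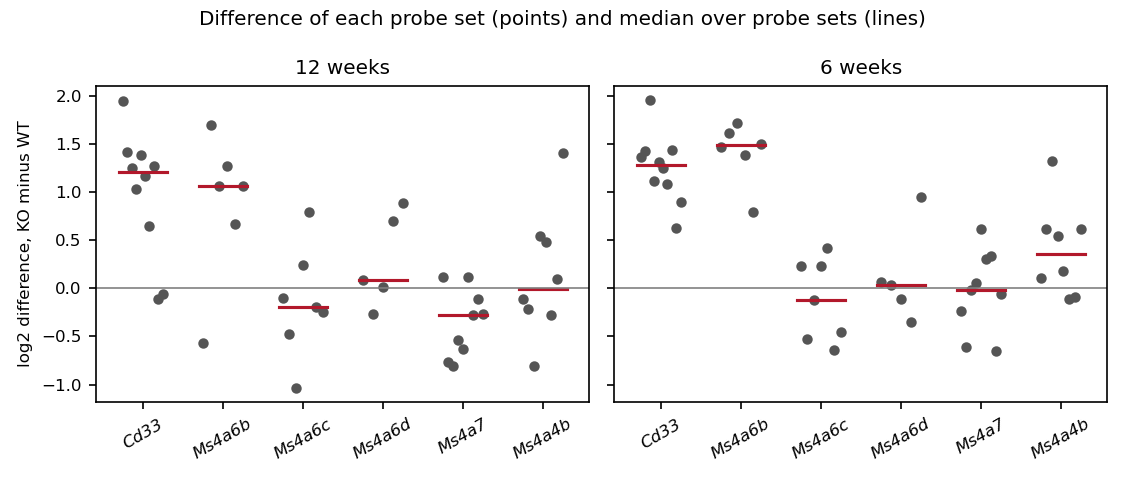
Log2 difference of KO minus WT for each of the 45 probe sets (points) with the median over a gene's probe sets (lines), at 12 weeks on the left and 6 weeks on the right. Of the Cd33 probe sets 8 of 10 lie above 0.5 at 12 weeks and 10 of 10 at 6 weeks, while those of Ms4a7 lie from −0.81 to 0.12 and from −0.65 to 0.61.

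The 12-week stage was compared with the 6-week stage within each genotype. Oligodendrocyte markers had median differences of −0.86 in KO and −1.65 in WT, and neuron markers 0.77 and 0.59. Without the 2 arrays of lowest weight the medians were −0.43 and −1.26, and 0.27 and 0.25. What part these tissue differences had in the members' values was not tested. No member passed in KO, where 1 gene of 16324 did (0.00613%), or in WT, where 3 did (0.0184%). By unadjusted p under 0.05 there was 1 of the 5 members in KO (Ms4a6d), against 7.5% of all genes, and 0 in WT, against 8.48%. For Ms4a6d in KO the log2 difference of 12 from 6 weeks was −1.17 ± 0.45 (SE; adjusted p = 0.586 in limma, exact permutation p = 0.0595), with KO means of 4.04 at 12 weeks and 5.21 at 6 weeks, and the difference was −0.83 without KO replicate 2 of 6 weeks. In WT its difference was −0.59 ± 0.42 (SE; adjusted p = 0.724 in limma). Cd33 differed by −0.42 ± 0.29 in KO and −0.39 ± 0.28 in WT (SE), Ms4a6c by −0.73 and −0.16, Ms4a6b by −0.14 and 0.22, and Ms4a7 by 0.55 and 0.30. Without KO replicate 2 of 6 weeks the KO differences were −0.16 for Cd33, −0.19 for Ms4a6c, 0.16 for Ms4a6b and 1.02 for Ms4a7. Without WT replicate 4 of 6 weeks the WT differences were −0.54, −0.40, 0.07 and 0.27 in the same order, and −0.77 for Ms4a6d. The genotype by stage interaction passed for no member and for 0 genes overall in limma, where 849 genes (5.2%) had an unadjusted p under 0.05 and none of the 5 members did.

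Because myeloid markers moved with genotype, their values belong beside these results. Of 17 pan-myeloid markers tested, 15 were above WT in KO at 12 weeks, with a median log2 difference of 0.96, and 2 passed: Itgam (1.76 ± 0.27), an integrin subunit and complement receptor, and Laptm5 (1.54 ± 0.30), a lysosomal membrane protein of blood cells. At 6 weeks the median was 0.92 and 0 passed by limma, while 9 had an unadjusted p under 0.05. That shift rested in part on single arrays: the median was 0.41 without the 2 arrays of lowest weight and 0.37 without KO replicate 2 alone. The mean over the list was 7.89 in KO and 7.80 in WT without both, a difference of 0.09. Homeostatic microglia genes had medians of 1.42 at 12 weeks (8 of 12 passed, all higher in KO) and 1.75 at 6 weeks (4 of 12 passed, as did 4 with a median of 1.26 without the 2 arrays of lowest weight and 1 without KO replicate 2 alone). Among them were P2ry12 (1.87 and 2.47 at 12 and 6 weeks), a purinergic receptor of microglial processes, and Tmem119 (1.38 at 12 weeks). The median over all genes was 0.02 at 12 weeks and 0.00 at 6 weeks. Among border macrophage and monocyte markers 9 of 10 were above WT in KO at 12 weeks, with a median of 0.66, and the scavenger receptor gene Stab1 passed (1.00 ± 0.18). All 6 astrocyte markers were above WT in KO at 12 weeks (median 0.50), and 5 of 6 at 6 weeks (median 0.66, and 0.31 without the 2 arrays of lowest weight). None of them passed by limma, and 4 had an unadjusted p under 0.05 at each stage. Their part in the members' values was not tested. Markers of B cells, mast cells, neutrophils and dendritic cells had 0 members passing at either stage.

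Each gene was then set against the pan-myeloid mean of its own array. On this scale Cd33 was 0.47 higher in KO at 12 weeks (adjusted p = 0.189 in limma) and 0.58 higher at 6 weeks (adjusted p = 0.261). Ms4a6b was at 0.23 and 0.67 (adjusted p = 0.565 and 0.263). The other 3 were lower in KO at 12 weeks: Ms4a6c at −0.90 (adjusted p = 0.0483), Ms4a7 at −1.07 (adjusted p = 0.0393) and Ms4a6d at −0.82 (adjusted p = 0.0644). On this scale 31.7% of all genes passed, 5170 lower and 9 higher in KO, and the median over all genes was −0.82. The values of these 3 genes are thus close to that of a typical gene, and 2 of 5 passing is near the share of all genes. What part of the Cd33 difference goes with the amount of myeloid RNA was not tested beyond these values.

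**Figure D4:**
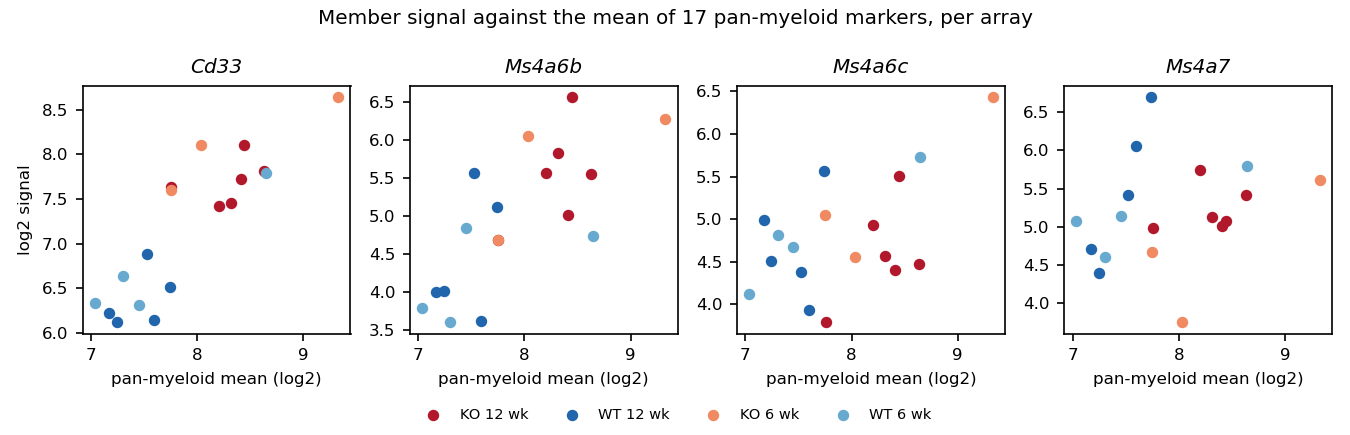
Log2 signal of Cd33, Ms4a6b, Ms4a6c and Ms4a7 (vertical axes) against the mean log2 signal of 17 pan-myeloid markers (horizontal axis), with 1 point per array coloured by group. Cd33 tends to be higher where the pan-myeloid mean is higher, and the KO arrays of 12 weeks lie to the right of the WT arrays (7.75 to 8.63 against 7.17 to 7.74). Arrays with nearly the same mean can differ in Cd33 or be alike in it, as pairs picked from the plot show. At 12 weeks WT replicate 5, with a mean of 7.74, had Cd33 at 6.52. KO replicate 1, with a mean of 7.75, had it at 7.64. WT replicate 3 of 6 weeks, with a mean of 8.65, had Cd33 at 7.79. KO replicate 6 of 12 weeks, with a mean of 8.63, had it at 7.82. Ms4a6c and Ms4a7 overlap between genotypes.

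How the members varied together was described over the 18 arrays after each group's mean was taken off. All arrays share the tissue, its content of myeloid cells and the platform, and no p is given. With the pan-myeloid mean, Cd33 had a Pearson r of 0.81 (Spearman rho 0.72), Ms4a6c 0.71, Ms4a6d 0.66, Ms4a7 0.63 and Ms4a6b 0.55. Without the 2 arrays farthest from each gene's own median, r was 0.60 for Cd33, 0.64 for Ms4a6c, 0.62 for Ms4a6d, 0.68 for Ms4a7 and 0.52 for Ms4a6b, so the order rests on those arrays. With border macrophage and monocyte markers r was 0.07 to 0.35. Between members, Ms4a6c and Ms4a6d had the highest r (0.67, rho 0.66) and Ms4a6b and Ms4a7 the lowest (0.31, rho 0.33). The 3 genes most like Cd33 were Pros1 (r 0.93, rho 0.85), which encodes protein S, Adap2 (r 0.91) and the sorting nexin gene Snx5 (r 0.89). For Ms4a6d they were Cst7 (r 0.86), which encodes cystatin F, the proton-sensing receptor gene Gpr65 (r 0.86) and the integrin gene Itgb5 (r 0.85). For Ms4a6c they were Brd2, Atf3 and Ostf1 (r 0.84 to 0.86), for Ms4a6b Rida, Scrg1 and Arsk (0.81 to 0.85), and for Ms4a7 Rps20, Mamdc2 and Nbr1 (0.81 to 0.85). Without the 2 arrays farthest from each member's own median, r was 0.84, 0.82 and 0.78 for the Cd33 genes. For those of the other members it was 0.74 to 0.85. All were picked for the highest r among the genes tested, so the size of r is no evidence of shared regulation.

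Of the other MS4A genes and their relatives Tmem176a and Tmem176b, 15 of 16 were measured and 5 were above the filter. None passed in a genotype comparison, and 5 of 5 were below WT in KO at 12 weeks (median −0.18). The smallest p was that of Ms4a8a, at 3.70 ± 0.30 in KO and 4.17 ± 0.38 in WT (SD), a log2 difference of −0.47 ± 0.22 (SE; adjusted p = 0.438 in limma). Of the other Siglec genes 7 of 8 were measured. Siglech, a Siglec of microglia that couples to TYROBP, was 2.38 ± 0.27 higher in KO at 12 weeks (adjusted p = 2.84e-04 in limma) and 2.30 ± 0.34 higher at 6 weeks (adjusted p = 0.0117, and a difference of 1.87 with an adjusted p of 0.0336 without the 2 arrays of lowest weight). The other 6, Mag of myelin among them, did not pass at either stage, with 12-week differences between −0.20 (Siglec15) and 0.28 (Siglece).

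Genes of signalling next to these receptors had 14 of 16 members tested. Of them 11 were above WT in KO at 12 weeks and 12 at 6 weeks (medians 0.35 and 0.51), and 0 passed by limma, while 5 of 14 had an unadjusted p under 0.05 at 12 weeks and 5 of 14 at 6 weeks, against the 11.1% and 5.44% of all genes given above. Without the 2 arrays of lowest weight the 6-week figures were 6 of 14 above WT, a median of −0.06 and 1 with an unadjusted p under 0.05. Fcer1g, the common gamma chain of Fc receptors, was at 0.95 ± 0.33 at 12 weeks (adjusted p = 0.262 in limma), and Inpp5d, which encodes the inositol phosphatase SHIP1, at 0.82 ± 0.30 (adjusted p = 0.312). Tyrobp was at 0.32 ± 0.19 at 12 weeks and 0.73 ± 0.24 at 6 weeks (adjusted p = 0.555 and 0.652), the second being 0.44 without those 2 arrays. Ptpn6, the phosphatase SHP-1 that human CD33 recruits, was at 0.48 and 0.47 (adjusted p = 0.518 and 0.999), the second being −0.05 without them. Lilrb4a went the other way, at −0.72 ± 0.48 at 12 weeks and −1.41 ± 0.60 at 6 weeks (adjusted p = 0.603 and 0.841 in limma). It was 1 of the 5 genes with an unadjusted p under 0.05 at 6 weeks.

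Of 20 other genes of Alzheimer's risk loci, all tested, Trem2 passed at 12 weeks (−2.09 ± 0.28, adjusted p = 0.00252 in limma) and 0 others did at either stage. The medians were 0.07 and 0.11 at 12 and 6 weeks. Spi1 averaged 6.88 ± 0.24 in KO and 5.52 ± 0.93 in WT at 12 weeks (SD), a difference of 1.35 ± 0.38 (SE; adjusted p = 0.149 in limma). Grn, which encodes progranulin, was at 1.07 ± 0.33 (adjusted p = 0.201) and Scimp, an adaptor of Toll-like receptors, at −0.75 ± 0.23 (adjusted p = 0.210). Apoe was at −0.02 ± 0.12 at 12 weeks and −0.05 ± 0.15 at 6 weeks.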

How the data were processed

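RNA was extracted with a silica column kit, amplified with a kit for small amounts and biotin-labelled (per the labels' protocols). The values are the authors' deposited log2 probe-set signals (241576 probe sets, 18 one-colour arrays, from 0.73 to 13.7), and array medians ran from 5.26 to 5.41, so no further normalization was applied. Background correction, normalization and summary steps are not given in the sources used here. Gene names come from the platform annotation, in which 212097 probe sets had 1 symbol, 4475 several and 25004 none. The last 2 kinds were not used. A RefSeq table (GRCm38.p6) gave current symbols for 2688 older ones, and 107 had no entry in it. A gene's value is the median of its probe sets. The dimmest 20% of genes (mean up to 3.41) were dropped and 16324 kept. One limma fit (version 3.58.1, R 4.3.3) over 4 groups, with 14 residual and 5.6 prior degrees of freedom, gave all contrasts, two-sided, with Benjamini-Hochberg adjustment over all genes tested. Exact permutation tests are two-sided over arrays. The number of arrays limits the precision. No 2 arrays were identical (correlations from 0.859 to 0.956). The fit was tested on simulated data. Python 3.11.15, numpy 2.4.6, pandas 2.3.3, scipy 1.17.1 and matplotlib 3.10.9 were used.

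The members and gene lists were chosen with earlier results of these data known. Named genes are the 6 members, the genes of 4 related lists that passed or had the smallest p in a genotype comparison, and the 3 genes with the highest r per member. A few further list members (Tyrobp, Ptpn6, Lilrb4a, Apoe, Mag, Siglec15, Siglece) and the markers named were chosen for their role or after their values were seen. Replicate numbers are shared between groups, but deviations of same-numbered KO and WT arrays correlated at −0.36 to 0.24, over 0.1 in 1 of 8 pairs, so they were not treated as pairs.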

Additional observations from a re-analysis of the deposited data

How the results depend on the processing

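The count of members passing KO vs WT at 12 weeks was 1 (Cd33). It was 0 with the brightest probe set (Cd33 at 1.16), 0 with the replicate block (Cd33 at 1.29, adjusted p = 0.0622; the shared numbers did not pair the arrays) and 2 relative to the pan-myeloid mean (Ms4a6c and Ms4a7, lower, while Cd33 was at 0.47). Leaving out single arrays it was 0 to 1, and 0 to 1 at 6 weeks, where it was 0 with all arrays. It stayed at 0 in both stage comparisons and the interaction under the alternatives that could be run there. The Cd33 difference was positive at both stages in the alternatives run, 0.47 to 1.44 at 12 weeks and 0.58 to 1.68 at 6 weeks. The number of all genes passing at 12 weeks was 72, and 20 with the replicate block, 108 with the mean of probe sets, 191 with array weights, 239 in a fit of these groups alone and 217 without the 2 arrays of lowest weight, an alternative chosen after seeing the data. Leaving out single arrays gave 15 (without WT replicate 3 or KO replicate 6 of 12 weeks) to 130 (without KO replicate 2 of 6 weeks), so the share of all genes set beside the members moves with 1 array.

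Several differences changed sign in some alternatives, none of them passing. Some were near 0 in the main fit, such as 0.02 for Ms4a6d at 12 weeks. Others were not, such as 0.60 for Ms4a6d and −0.48 for Ms4a7 at 6 weeks. The cause was not tested. For KO vs WT at 12 weeks Ms4a6d was at −0.12 with array weights, −0.15 with the replicate block and −0.82 relative to the pan-myeloid mean. Leaving out single arrays gave −0.18 to 0.41 for Ms4a6d, −0.25 to 0.16 for Ms4a6c and −0.50 to 0.08 for Ms4a7. For KO vs WT at 6 weeks Ms4a6c was at −0.12 with the mean of probe sets, −0.45 with the brightest probe set, −0.25 relative to the pan-myeloid mean, −0.26 without the 2 arrays of lowest weight and −0.03 to 0.91 leaving out single arrays. Ms4a6d was at −0.16 relative to the pan-myeloid mean and Ms4a7 at 0.34 with the brightest probe set. For 12 vs 6 weeks in KO Ms4a6b was at 0.02 with the brightest probe set, 0.05 with array weights, 0.16 without the 2 arrays of lowest weight and −0.63 to 0.16 leaving out single arrays, and Ms4a7 at −0.23 with the brightest probe set. In WT the single-array ranges were −0.05 to 0.43 (Ms4a6b), −0.40 to 0.14 (Ms4a6c) and −0.01 to 0.57 (Ms4a7). For the interaction Cd33 was at 0.14 with array weights, 0.01 with the replicate block, 0.38 without the 2 arrays of lowest weight and −0.37 to 0.23 leaving out single arrays. Ms4a6b was at 0.09 and Ms4a6c at 0.20 without the 2 arrays of lowest weight. With the brightest probe set Ms4a6c was at 0.21, Ms4a6d at 0.02 and Ms4a7 at −0.62. With the mean of probe sets Ms4a6d was at 0.17 and Ms4a7 at −0.32, and Ms4a7 was −0.22 to 0.72 leaving out single arrays. A fit of only the compared groups gives no separate interaction.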
